A study of Arabidopsis thaliana with 5 samples.

Results

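The transcripts described are those of the plastid genome, taken as all loci of the deposited gene table whose identifier starts with ATCG. There are 133 of them among 33559 loci. RNA-seq of total RNA from roots of a wild ecotype line of Arabidopsis thaliana, labelled Col-1, came from plants cultivated for 5 weeks under a 10-h day and a 14-h night at 120 µmol photons m−2 s−1. Plants had received 0.5 µM Mg2+ (low Mg) for 4 d (L4) or for 7 d (L7), or 10 mM Mg2+ (high Mg) for 4 d (H4) or for 7 d (H7), and a 4-d control, whose Mg supply the labels leave out, completes the 5 groups. A 7-d control is not analysed here. There is 1 library per group, so no value has a replicate error, and no test of a difference between conditions was made.

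Plastids keep a small circular genome that codes for part of the photosynthetic apparatus and for much of the organelle's own gene expression machinery. Their genes are transcribed by a bacterial-type polymerase, whose core is encoded in the plastid by rpoA, rpoB, rpoC1 and rpoC2 and which is steered by nuclear sigma factors, and by phage-type polymerases encoded in the nucleus. In roots most plastids are colourless and serve starch storage, lipid and amino acid synthesis. The 2 polymerases are known to share the plastid genes between them: photosynthesis genes depend largely on the bacterial type, whereas rpoB with rpoC1 and rpoC2, and accD, are textbook targets of the phage type.

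The deposited unit is FPKM, a fragment count divided by transcript length in kilobases and by library size. Of the 133 loci, 65 were listed at 0 in every library, 68 were above 0 in at least 1 library and 28 in all 5. Loci above 0 numbered 55 in the control, 55 in L4, 54 in H4, 35 in L7 and 49 in H7. At 5 FPKM or more there were 23, 21 and 20 in the 3 libraries of 4 d, in the same order, against 3 in L7 and 6 in H7. The 7-d libraries thus held fewer plastid loci at that level than any 4-d library. This count takes in loci of any length, and on short loci 1 fragment was worth more FPKM at 4 d. On an exon of 369 nt, 1 fragment was worth 1.33 FPKM in the control, 0.993 in L4 and 1.06 in H4. In L7 and H7 it was worth 0.757 and 0.467 FPKM. The count alone therefore cannot compare amounts of transcript between days, and the part of fragment length in it was not tested.

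The spacing of low FPKM values gave the value of 1 fragment in each library, and with it the number of fragments behind each gene. By this estimate the libraries held 13.2 M fragments (control), 15.7 M (L4), 14.7 M (H4), 7.95 M (L7) and 13.1 M (H7). Mean fragment length was 316, 307 and 307 nt at 4 d and 204 and 206 nt at 7 d, so it moved with the day. Counts are also given as FPM, fragments per 1000000 fragments of the library. Intervals below are exact 95% Poisson intervals on these fragments and cover counting error only. For a count of 0 this interval reaches 3.69 fragments, which is 0.464 FPM in L7. For scale, 3 fragments are 0.377 FPM in L7 and 0.23 FPM in H7.

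The tables give identifiers without gene names, and the reference used here lists the plastid genes under other tags. The standard name of an identifier was therefore kept only where the exon length of that gene turned its FPKM values into whole fragments. This held for 47 identifiers. Over all identifiers that could be judged, 155 of 168 values of 25 fragments or fewer were within 0.06 fragment plus 0.5% of a whole number. For 21 of the 47, none of the 59 other plastid gene lengths tried did the same. The named coding genes followed the order of the RefSeq map (build TAIR10.1, chloroplast chromosome Pltd) with 0 exceptions. This order rests on the standard names and not on the values. Among the names are 40 coding genes of 350 nt or more, of which 32 reach 500 nt. The other loci are called by identifier.

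The identifiers at 0 were not spread evenly. Of the 37 identifiers that lie between rps19 (ATCG00820) and ndhF (ATCG01010) or after ycf1 (ATCG01130), where the reference map has the inverted repeat with the ribosomal RNA genes, 35 were at 0 in all libraries, against 30 of the 96 elsewhere. The exceptions were rrn16S (ATCG00920), the small ribosomal subunit RNA, with 1 fragment in the control, and rrn23S (ATCG01180), the large subunit RNA, with 1 fragment in H4. Repeat genes have a second copy, and how reads with more than 1 match were counted is not given in the sources used here. The part of that counting in these zeros was not tested.

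At 4 d a small set of genes held most of the signal. Named genes with at least 50 fragments in every 4-d library were atpB (ATCG00480) and atpE (ATCG00470), rpoA (ATCG00740), rpl14 (ATCG00780), rpl16 (ATCG00790), rps3 (ATCG00800), rpl22 (ATCG00810) and ycf1 (ATCG01130). This limit was set after the values were seen, so the 8 genes are described and not tested. Their names rest on 1 whole value for rps3 and 2 for each of the others, all at 7 d. For all but rpl14 and rpl22, at least 1 other gene length gave whole fragments too. The lowest value inside was 89 fragments for rpoA in the control. Outside, the highest 4-d value was 31 fragments for rpoB (ATCG00190) in high Mg. The 8 genes held 89.1% of the fragments of all 40 genes in the control, 89.2% in L4 and 89.8% in H4. At 7 d they held 26.9% in low Mg and 18.4% in high Mg.

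**Figure D1:**
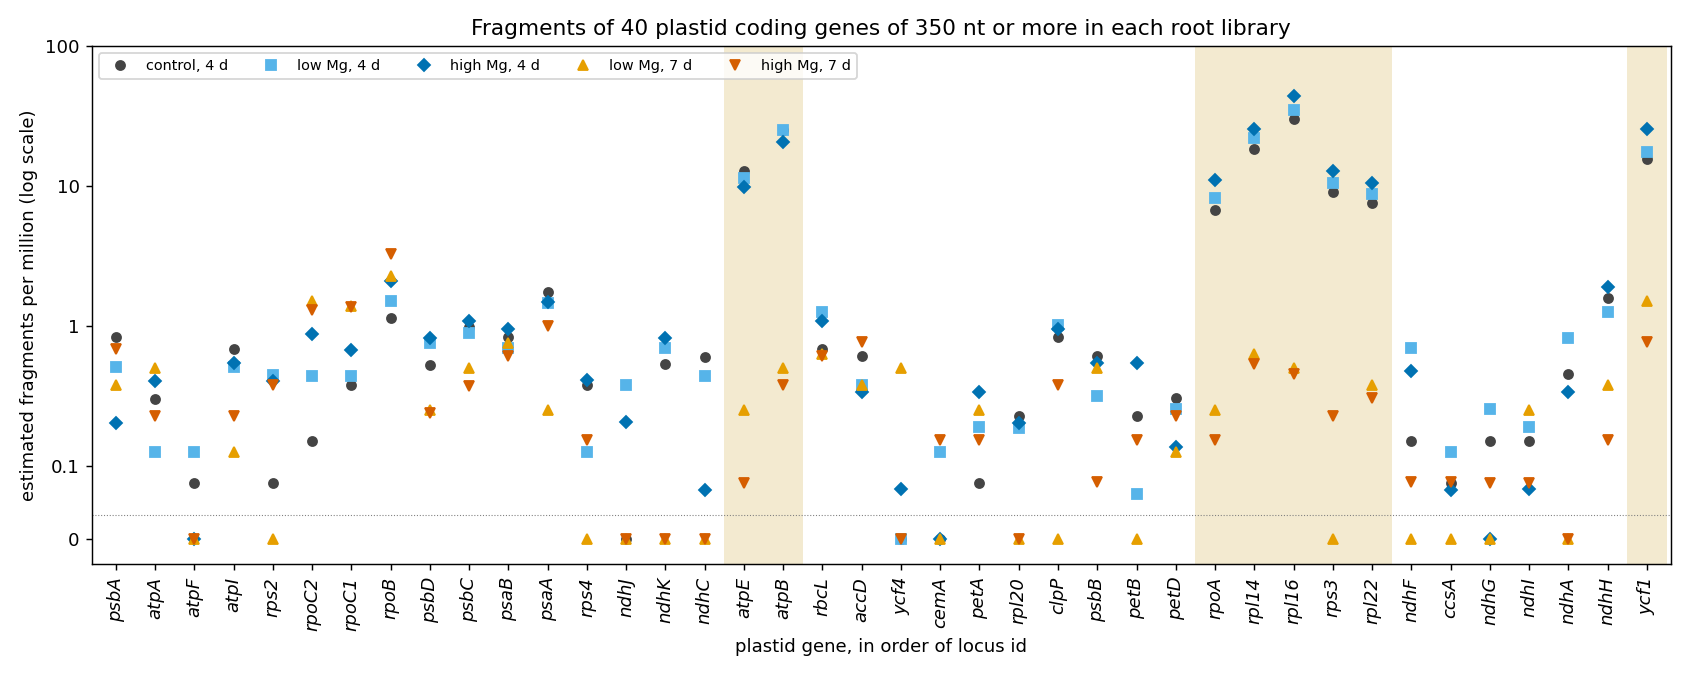
Estimated FPM (y axis, log scale, with 0 drawn below the dotted line) of the 40 named plastid coding genes of 350 nt or more (x axis, by identifier), 1 symbol per library. The shaded columns are the 8 genes with at least 50 fragments in every 4-d library, and in each of them both 7-d symbols lie below the 3 of 4 d.

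The first block of the set is the pair atpB and atpE, which code for the beta and epsilon subunits of the ATP synthase. In TAIR10.1 atpB lies at Pltd:52660-54156 and atpE at Pltd:52265-52663, both on the minus strand. They share the 4 bases in capitals below, so that fragments across the junction belong to both, which is why this stretch is shown (Pltd:52636-52687, minus strand, 5′ to 3′).
atpB-atpE: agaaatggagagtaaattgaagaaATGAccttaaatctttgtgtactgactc

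For atpB, FPKM was 21.4 in the control, 21.2 in L4, 17.4 in H4, 0.388 in L7 and 0.296 in H7. For atpE it was 152, 122, 107, 1.29 and 0.393 in the same order. Both genes were high in all 3 libraries of 4 d and low in both of 7 d, with no overlap. The remaining ATP synthase genes stood apart from this pair: atpA (ATCG00120), the alpha subunit, had between 2 and 6 fragments in every library, and atpF (ATCG00130), a stator subunit, had at most 2. The membrane subunit gene atpI (ATCG00150) had 8 or 9 fragments at 4 d and 1 and 3 at 7 d.

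The second block is a group of 5 genes, all on the minus strand between Pltd:77901 and Pltd:83949. It starts with rpl22 and ends, in the direction of transcription, with rpoA, the alpha subunit of the bacterial-type polymerase, while the other 4 code for proteins of the plastid ribosome. The junction of rpl22 and rps3 is shown because the 2 genes share 16 bases, in capitals, with the start codon of rps3 and the stop codon of rpl22 at its ends (Pltd:83443-83506, minus strand, 5′ to 3′).
rpl22-rps3: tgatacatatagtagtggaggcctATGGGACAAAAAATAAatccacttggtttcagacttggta

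Within the group, rpl16 had 324 FPKM in the control, 341 in L4 and 430 in H4, and 2.46 and 2.26 FPKM in L7 and H7. FPKM of rpl14 was 325, 346 and 399 at 4 d and 3.80 and 3.25 at 7 d. Both code for large-subunit proteins, and both had the same order of libraries at 4 d, with high Mg above low Mg and the control lowest. The polymerase gene rpoA had 10.0, 12.0 and 16.2 FPKM at 4 d and 0.320 and 0.195 at 7 d.

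For rps3 (small subunit), FPKM was 26.7, 30.1 and 36.8 at 4 d, 0 in L7 and 0.508 in H7. The large-subunit gene rpl22 had 45, 49.4 and 59.4 FPKM at 4 d and 1.35 and 1.1 at 7 d. No 7-d value of the group reached the lowest 4-d value of the same gene. The gene next to the group on the rpl22 side, rps19 (ATCG00820), is 279 nt long and too short for a fragment estimate at 4 d. Its FPKM of 272, 327 and 292 at 4 d and 1.54 and 0.94 at 7 d were likewise far lower at 7 d.

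The last member of the set, ycf1, codes for a large protein of the inner envelope import machinery and has the longest exon of the 40 genes (5361 nt, Pltd:123880-129240, minus strand). Its FPKM was 3.11 in the control, 3.46 in L4 and 5.07 in H4, and 0.292 and 0.149 in L7 and H7. These low FPKM values stood for 207, 276 and 377 fragments at 4 d and for 12 and 10 at 7 d, so ycf1 rests on more fragments than most members.

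Deposited FPKM set the short genes higher at 4 d, against other genes, than a count per kilobase of exon did. As read from the values, 1 fragment was worth an amount set by an effective length, close to the exon length less the mean fragment length. This left 56.9 nt of the 369 nt of rpl14 in the control and 164 nt in H7. On a scale of FPM per plain kilobase, rpl16 was at 73.9 in the control, rpl14 at 50.2, atpE at 32.1, atpB at 16.9, rpl22 at 15.7, rps3 at 13.9, rpoA at 6.83 and ycf1 at 2.93. The order of these levels per length was led by the same 3 genes as in FPKM, but rpl16 came first and the gap from rpl14 to atpB closed from 325 against 21.4 FPKM to 50.2 against 16.9 FPM per plain kilobase. A change of fragment length between days bears on these short genes in both units. FPKM divides by the effective length, whereas FPM leaves the smaller effective length at 4 d uncorrected. Differences between days are given in both.

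**Figure D2:**
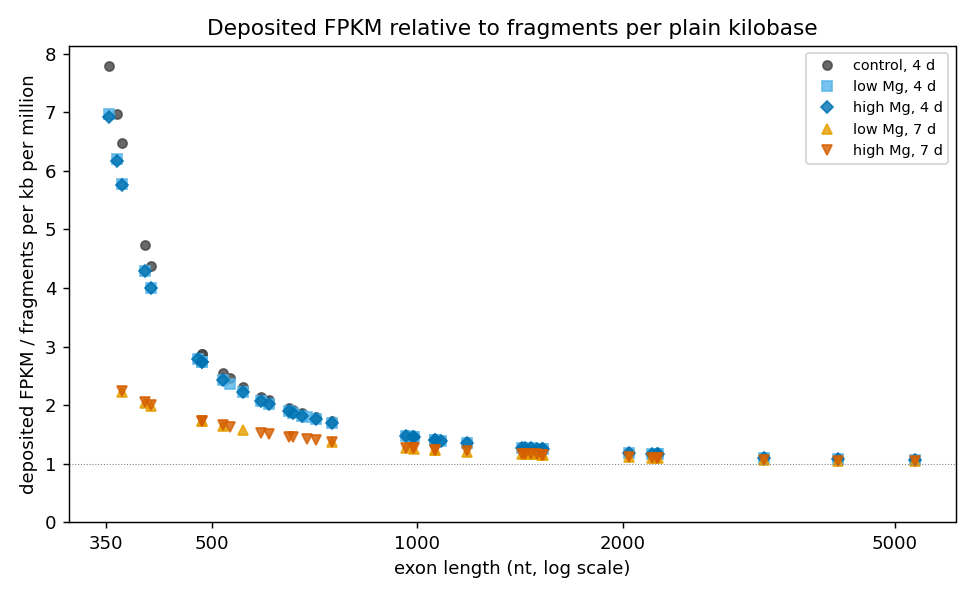
Deposited FPKM divided by FPM per plain kilobase (y axis, ratio) against exon length in nt (x axis, log scale), 1 symbol per named plastid gene and library where the gene was above 0. The ratio nears 1 for long genes and rises steeply under 500 nt, more so in the 3 libraries of 4 d than in the 2 of 7 d.

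The comparison of days, within low Mg and within high Mg, gave the main difference among these transcripts. Of the 32 coding genes of 500 nt or more, 3 passed the filter of 5 FPKM in either library in low Mg, and all 3 (atpB, rpoA and rps3) were lower at 7 d by 2-fold or more. In high Mg the same 3 genes and ycf1 passed, and all 4 were lower. Over all loci past the filter, 13.1% were lower by 2-fold or more in low Mg and 11.5% in high Mg. The median log2 ratio, with a pseudocount of 1, was −4.00 in low Mg and −3.84 in high Mg, against −0.16 in both over all loci tested. With genes down to 350 nt, 8 of 8 past the filter were lower in each. A gene had to reach 5 FPKM at 4 d or 7 d to pass, and these passed through their 4-d value.

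In FPM, the 8 genes summed to 126 (120 to 132) in the control, 139 (133 to 144) in L4, 160 (154 to 167) in H4, 4.02 (2.75 to 5.68) in L7 and 2.91 (2.06 to 3.99) in H7. The sum was 34.4-fold higher at 4 d than at 7 d in low Mg (24.3 to 50.5) and 55.1-fold higher in high Mg (40 to 78), by counting error alone. FPM makes no correction for effective length, and in summed FPKM both folds were larger (given in the last section). Gene by gene in FPM, the lowest 4-d value was between 10.4 times (ycf1) and 59.7 times (rpl16) the highest 7-d value. Of nuclear coding loci chosen by the same limit of 50 fragments in every 4-d library, 42.2% had both 7-d libraries below all 3 of 4 d in FPKM, and 0.149% had them lower by 8-fold or more. All 8 plastid genes lay beyond 8-fold.

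As a sum, the other 32 genes differed much less between days. They summed to 15.4 FPM (13.4 to 17.7) in the control, 16.8 (14.8 to 18.9) and 18.1 (16 to 20.5) in L4 and H4, and 10.9 (8.76 to 13.5) and 12.9 (11.0 to 15) in L7 and H7. The sum joins opposite moves. In it, rpoB, rpoC1 and rpoC2 held 41 of 87 fragments in L7 and 78 of 168 in H7. At 4 d they held 22 of 203 in the control, 38 of 264 in L4 and 54 of 267 in H4. The NDH genes among the 32 fell further than the sum in FPM, as given below. In 12 of the 32 both 7-d libraries lay below the 3 of 4 d, in 3 they lay above and in 17 they overlapped, where 41.6% of nuclear coding loci at 5 FPKM or more lay below and 20.6% above. The share below is near that of nuclear genes, but the measures are not alike. The 32 genes were placed in FPM, most of them on few fragments, and the nuclear loci in FPKM at 5 FPKM or more. Scaled to the same nuclear sum, the 32 genes instead came to 15.4 in the control, 23.5 and 44.3 in L4 and H4 and 70 and 86.9 in L7 and H7, so their direction turned. On that scaling the 8 high genes were still lower at 7 d, at 25.7 and 19.7 against 126 to 391. The nuclear sum is dominated by short loci: the 1939 under 350 nt held 83.5% of it in the control, 76.9% and 60.1% in L4 and H4, and 23.5% and 22.2% in L7 and H7. In bulk roots, fewer cells of a type and less RNA per cell cannot be told apart.

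**Figure D3:**
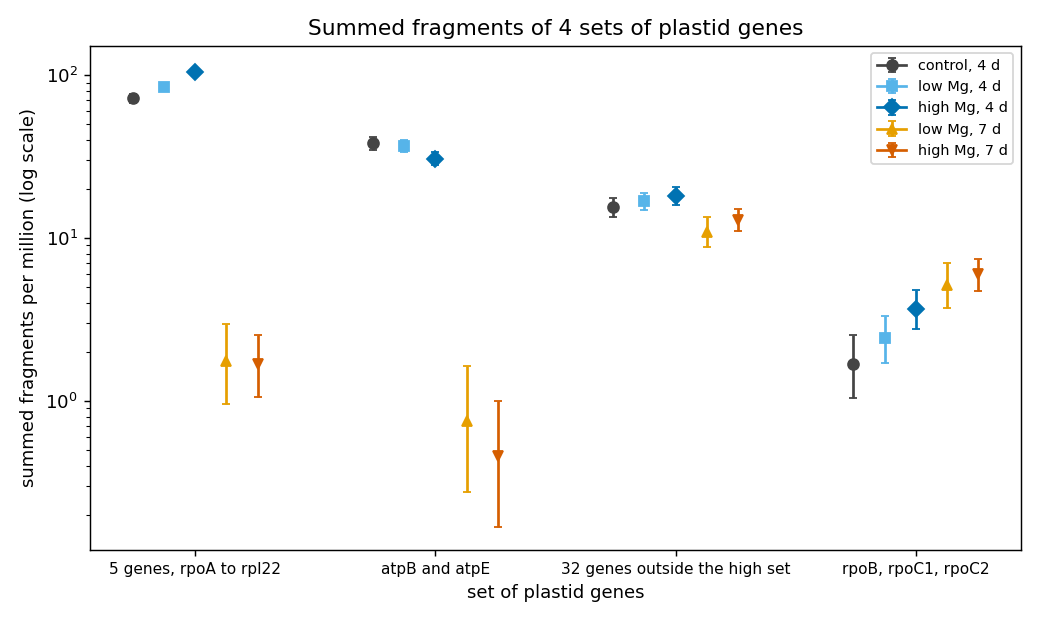
Summed FPM (y axis, log scale) of the 5 genes from rpoA to rpl22, of atpB and atpE, of the 32 genes outside the high set, and of rpoB, rpoC1 and rpoC2, which are among those 32. Points are single libraries and bars are exact 95% Poisson intervals (counting error only). The first 2 sets are far lower at 7 d. The sum of the 32 genes is a little lower (higher when scaled to the same nuclear sum). The 3 polymerase genes, part of that sum, are highest at 7 d.

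The 3 genes above at 7 d were the other core polymerase genes, rpoB (beta subunit), rpoC1 (ATCG00180, beta′) and rpoC2 (ATCG00170, beta″), which are neighbours on the minus strand. Fragments of rpoB numbered 15 in the control, 24 and 31 in L4 and H4, and 18 and 43 in L7 and H7, which is 1.14 to 2.1 FPM at 4 d and 2.26 to 3.30 at 7 d. Those of rpoC1 numbered 5, 7 and 10 at 4 d and 11 and 18 at 7 d. For rpoC2 there were 2, 7 and 13 at 4 d and 12 and 17 at 7 d. Summed, the 3 genes had 1.67 FPM (1.05 to 2.53) in the control, 2.41 (1.71 to 3.31) in L4 and 3.67 (2.76 to 4.79) in H4, 5.15 (3.70 to 6.99) in L7 and 5.97 (4.72 to 7.46) in H7. The 7-d sum was 2.14-fold the 4-d sum in low Mg (1.34 to 3.41) and 1.63-fold in high Mg (1.14 to 2.35). Of the 4 core genes of the bacterial-type polymerase, rpoA was thus lower at 7 d in FPM and the other 3 were higher. Since these 3 are the genes found above at 7 d, their sum and its intervals describe and do not test. Single genes were within counting error at their nearest libraries, as with rpoB at 2.1 FPM in H4 and 2.26 in L7.

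Copies of plastid sequence outside the plastid touch these 3 genes. Stretches of 100 nt or more at 90% identity or more in the nuclear or mitochondrial genome cover 65.7% of rpoC2, 12.8% of rpoB and 10.7% of rpoC1, and the part of those copies in the values was not tested. A further known target of the phage-type polymerase, accD (ATCG00500, a subunit of the acetyl-CoA carboxylase of fatty acid synthesis), has no such copy and had 8, 6 and 5 fragments at 4 d and 3 and 10 at 7 d. Its 2 days overlapped in FPM. With accD added to the 3 genes, the sums were 2.28 FPM in the control, 2.79 in L4, 4.01 in H4, 5.53 in L7 and 6.74 in H7.

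Photosystem and Rubisco genes of 350 nt or more were low in every library. psbA (ATCG00020), which codes for the D1 protein of photosystem II, had 1.12 FPKM in the control, 0.672 and 0.270 in L4 and H4, and 0.439 and 0.804 in L7 and H7, on 3 to 11 fragments. rbcL (ATCG00490), the large subunit of Rubisco, had 0.608, 1.12 and 0.959 FPKM at 4 d and 0.508 and 0.496 at 7 d, on 5 to 20 fragments. The days overlapped for psbA. In rbcL the 7-d libraries lay below the others by a margin smaller than the counting intervals, 0.684 (0.313 to 1.3) FPM in the control against 0.629 (0.204 to 1.47) in L7.

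Of the 2 reaction centre genes of photosystem I, psaA (ATCG00350) had 23, 23 and 22 fragments at 4 d and 2 and 13 at 7 d, and psaB (ATCG00340) had 11, 11 and 14 at 4 d and 6 and 8 at 7 d. The class summed to 2.58, 2.16 and 2.45 FPM at 4 d and to 1.01 (0.434 to 1.98) and 1.61 (0.996 to 2.46) at 7 d. The 4 photosystem II genes of this length summed to 2.96, 2.48 and 2.65 at 4 d and to 1.63 (0.870 to 2.79) and 1.38 (0.817 to 2.18) at 7 d. The shorter psbE (ATCG00580, 252 nt), which codes for a subunit of cytochrome b559 in photosystem II, had 11.1, 18.9 and 40.1 FPKM at 4 d and 2.08 and 0 at 7 d, with a log2 ratio of 1.76 for high Mg against the control. At that length no fragment estimate was made for 4 d, and its name rests on 1 whole value. The D2 protein gene psbD (ATCG00270) and the antenna protein gene psbC (ATCG00280) overlap by 53 bases, shown in capitals because their high Mg values at 7 d, 3.12 and 4.88 fragments, are whole only as a sum of 8 (Pltd:33696-33796, plus strand, 5′ to 3′).
psbD-psbC: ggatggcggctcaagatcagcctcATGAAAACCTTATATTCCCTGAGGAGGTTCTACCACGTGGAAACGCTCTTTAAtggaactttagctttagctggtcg

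Genes of the NDH complex, which takes part in cyclic electron flow, were lower at 7 d as a class in FPM. Its 8 genes of this length summed to 3.65 FPM (2.69 to 4.83) in the control, 4.76 (3.75 to 5.97) in L4, 3.87 (2.93 to 5.02) in H4, 0.629 (0.204 to 1.47) in L7 and 0.383 (0.124 to 0.894) in H7. Scaled to the same nuclear sum, the days overlapped, with 3.65, 6.67 and 9.45 at 4 d and 4.02 and 2.59 at 7 d. The gene of the H subunit, ndhH (ATCG01110), had 21, 20 and 28 fragments at 4 d and 3 and 2 at 7 d. ndhK (ATCG00430), ndhA (ATCG01100), ndhC (ATCG00440) and ndhJ (ATCG00420) were at 0 in both 7-d libraries. At 4 d, ndhC had 8 fragments in the control, 7 in low Mg and 1 in high Mg.

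The cytochrome b6f genes petA, petB and petD held between 3 and 15 fragments per library as a class. The protease subunit gene clpP (ATCG00670) had 11, 16 and 14 fragments at 4 d, 0 in L7 and 5 in H7. Of ribosomal protein genes outside the high set, rps2 (ATCG00160), rps4 (ATCG00380) and rpl20 (ATCG00660) summed to 9, 12 and 15 fragments at 4 d, 0 in L7 and 7 in H7. These 3 genes were low at 4 d as well. Of shorter small-subunit genes away from the group, rps15 (ATCG01120, 267 nt) had 62.7, 80.7 and 90.7 FPKM at 4 d and 3.5 and 1.07 at 7 d. For rps14 (ATCG00330, 303 nt) the values were 35.7, 19.8 and 36.2 FPKM at 4 d, 0 in L7 and 1.5 in H7. Both were high at 4 d and low at 7 d in FPKM, without a fragment estimate for 4 d.

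Mg levels were compared at 4 d and at 7 d. Of the coding genes of 500 nt or more, 3 passed the filter for low Mg against the control at 4 d and 4 for high Mg against the control and for low against high Mg, and 0 of them differed by 2-fold. Scaled to the same nuclear sum, 6 were 2-fold higher in high Mg than in the control and 4 were 2-fold lower in low than in high Mg, with medians of 1.37 and −1.06. Over all loci, 3.89%, 6.46% and 5.54% differed by 2-fold in these comparisons. The median log2 ratio of the members was 0.17 for low Mg against the control, 0.50 for high Mg against the control and −0.34 for low against high Mg, where over all loci it was −0.02, 0.00 and −0.02. The first 2 comparisons share the control library. At 7 d, 0 genes of this length passed the filter, so low and high Mg could not be set against each other there, while 5.79% of all loci past it differed by 2-fold.

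The blocks of the high set did not have the same order of libraries at 4 d. The 5 genes from rpoA to rpl22 summed to 72.2 FPM (67.7 to 76.9) in the control, 84.4 (79.9 to 89.1) in low Mg and 104 (98.9 to 109) in high Mg, whereas atpB and atpE summed to 38.1 (34.8 to 41.5), 36.6 (33.7 to 39.8) and 30.7 (27.9 to 33.6). High Mg was thus the highest library for these 5 genes and the lowest for the ATP synthase pair, by more than counting error in each, but scaled to the same nuclear sum the pair was highest in high Mg, at 38.1, 51.3 and 74.7. In FPKM, the largest ratios of high Mg to the control among the 8 genes were 1.63 for ycf1 and 1.62 for rpoA, and the lowest were 0.702 for atpE and 0.813 for atpB. At 7 d the 5 genes were at 1.76 (0.962 to 2.95) in low Mg and 1.68 (1.06 to 2.55) in high Mg, and the pair at 0.754 (0.277 to 1.64) and 0.460 (0.169 to 1.00), which counting error does not separate. Whether these differences exceed those between plants was not tested, with 1 library per group.

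Composition within the plastid coding genes of 500 nt or more is free of library scaling, though not of fragment length. In summed FPKM, the ATP synthase genes held 29.2% in the control, 26.2% in L4 and 19.5% in H4, and 10.8% and 8.09% in L7 and H7. The RNA polymerase genes held 13.2%, 14.7% and 18.1% at 4 d and 23.8% and 21.5% at 7 d. Both shares had the 7-d libraries outside the range of the 4-d libraries. The polymerase genes themselves were lower at 7 d, with sums of 8.43, 10.6 and 14.8 FPM at 4 d and 5.41 and 6.13 FPM at 7 d. Among genes of 1000 nt or more, which leaves out rpoA, the polymerase share was 1.94%, 2.64% and 4.16% at 4 d and 30.6% and 34.4% at 7 d. The ATP synthase share there was 64.4%, 63.0% and 54.9% at 4 d and 12.5% and 7.43% at 7 d. These genes made up 0.00604%, 0.00654% and 0.0074% of the summed product of FPKM and exon length over nuclear, mitochondrial and plastid loci of 500 nt or more at 4 d, and 0.00117% and 0.00133% at 7 d.

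Features that the choice did not use were also read for the 8 genes high at 4 d. Their coding strands held 30.2 to 40.2% A (median 36.3%), against 22.0 to 36.2% (median 29.7%) in the other 32. All 8 lay on the minus strand, as did 21 of the 32. A copy of 100 nt or more outside the plastid was found for 1 of the 8 (ycf1) and for 11 of the 32. The longest run of A had a median of 7 nt in the set and 6 nt outside it, with ranges of 4 to 14 nt and 4 to 13 nt. The ranges of both features overlapped. In the share of A, atpB (30.2%) was the lowest of the set and atpE (33.8%) the next. Among the other 32, atpF (36.0%) and rpl20 (36.2%) lay above atpE, and the rest lay below it. Neighbours are not independent in such features, and no test was made.

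**Figure D4:**
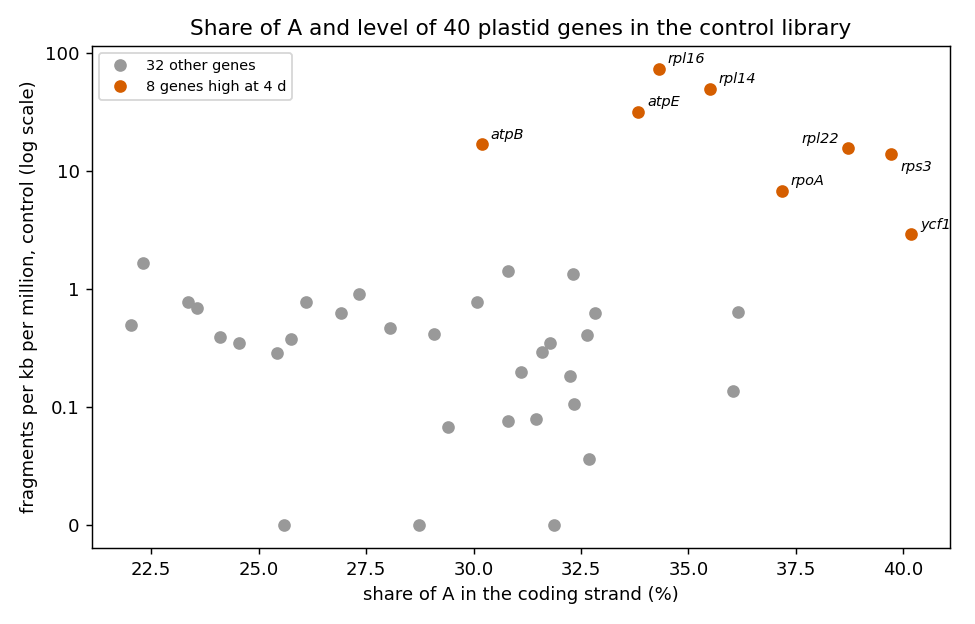
Share of A in the coding strand (x axis, %) and FPM per plain kilobase in the control library (y axis, log scale, with 0 drawn at the bottom) for 40 plastid genes. The 8 genes high at 4 d (labelled) span 30.2 to 40.2% A, and the other 32 span 22.0 to 36.2% with lower levels.

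The longest runs of A are shown with 20 bases on each side, in capitals, for 2 genes of the set and for 2 genes outside it. All are 5′ to 3′ on the coding strand. rpoA has 14 A in its run (Pltd:78075-78128, minus strand), ycf1 has 13 (Pltd:125848-125900, minus strand), rpoC2 has 13 (Pltd:17906-17958, minus strand) and accD has 13 (Pltd:57352-57404, plus strand).
rpoA: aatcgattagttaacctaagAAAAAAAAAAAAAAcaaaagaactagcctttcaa
ycf1: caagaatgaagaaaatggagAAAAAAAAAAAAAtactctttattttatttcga
rpoC2: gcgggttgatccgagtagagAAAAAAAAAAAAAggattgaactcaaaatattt
accD: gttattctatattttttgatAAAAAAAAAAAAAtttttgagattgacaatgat
In the control, rpoA had 89 fragments, ycf1 207, rpoC2 2 and accD 8. The genes are shown for their run length alone. Whether runs of A or the share of A bear on these counts was not tested.

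Very short loci gave the highest FPKM of all plastid identifiers, on few fragments. ATCG00065 and ATCG00760 were both at 1065 FPKM in the control, the same value to the last digit. In L4 ATCG00760 was at 3969 FPKM, 4 times the 992 FPKM of ATCG00065. ATCG00065 and ATCG00510 had 24.2 FPKM each in H7, and in L7 ATCG00510 had 77.9 FPKM, 2 times the 39.0 FPKM of ATCG00065. Such equal steps mean that 1 fragment on these loci can stand for about 1000 FPKM at 4 d and for 24 to 39 FPKM at 7 d. ATCG00080 (1072 FPKM in H4), ATCG00200 (269 in H7) and ATCG00400 (149 in L7) were above 0 in 1 library each. The highest was ATCG00760 at 5020 FPKM in H4. These loci, which the reference used here does not name, were compared between conditions no further.

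Nuclear genes that act on plastid transcription were read from lists. The gene of a phage-type plastid polymerase, SCA3 (AT2G24120), had 6.26, 4.84 and 5.33 FPKM at 4 d and 4.86 and 5.49 at 7 d, close together. The other listed gene of that type, AT5G15700, had 3.25 to 5.05 FPKM over the 5 libraries. Of 6 sigma factor genes, SIGE (AT5G24120, also SIG5), known in Arabidopsis for its induction by blue light and stress and for acting at the psbD promoter, had 1.91 FPKM in the control, 3.61 and 4.42 in L4 and H4, and 20.2 and 34.4 in L7 and H7. It was the only listed sigma factor gene 2-fold higher at 7 d, of 3 past the filter in each Mg level. Of all loci, 4.03% were 2-fold higher in low Mg and 4.67% in high Mg. SIGE was under 5 FPKM at 4 d and passed the filter only through its 7-d values. The log2 ratio was 2.20 in low Mg and 2.71 in high Mg. psbD itself had 0.712, 1.01 and 1.08 FPKM at 4 d and 0.293 and 0.279 at 7 d.

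**Figure D5:**
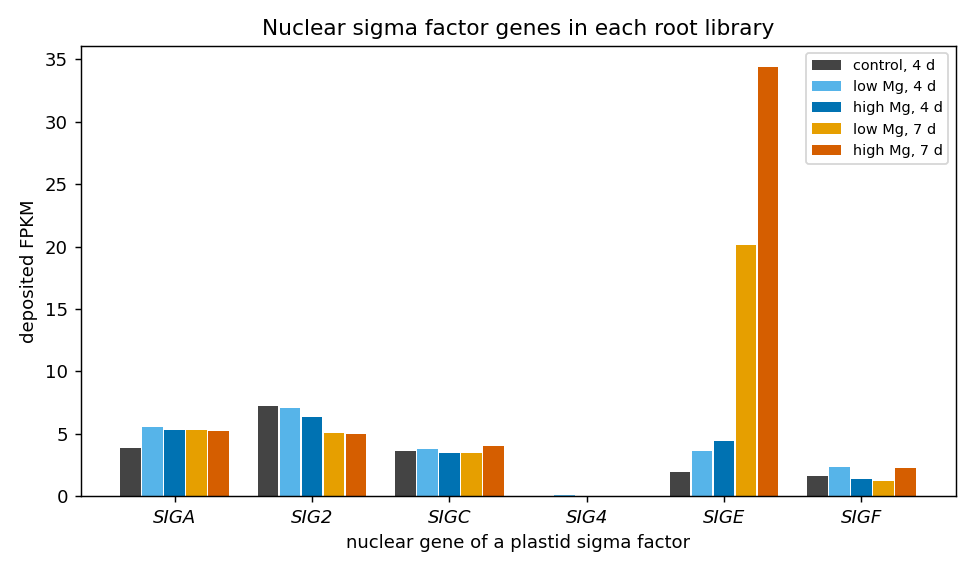
Deposited FPKM (y axis, from 0) of the 6 nuclear sigma factor genes (x axis) in the 5 libraries, 1 bar per library with no error bar because each group is 1 library. SIGE is at 1.91 FPKM in the control and at 34.4 in H7, and the other 5 are below 8 FPKM.

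Of 13 listed proteins associated with the bacterial-type polymerase, 9 passed the filter between days and 1 was 2-fold lower at 7 d in low Mg and 2 in high Mg, where 13.1% and 11.5% of all loci were. The one in both Mg levels was PTAC6, which had 21.1, 19.7 and 15.8 FPKM at 4 d and 3.10 and 2.87 at 7 d. The second in high Mg was TRX z, a plastid thioredoxin, with 13.1 FPKM in H4 and 5.23 in H7. The 8 nuclear subunit genes of the Clp protease, partners of clpP, and the 3 of the acetyl-CoA carboxylase, partners of accD, all passed the filter, and 0 differed by 2-fold in any of the 6 comparisons. Their summed FPKM was 343, 374, 378, 340 and 354 for Clp and 243, 264, 287, 281 and 254 for the carboxylase, in the order control, L4 and H4, L7 and H7. Over all loci, 3.89 to 6.46% differed by 2-fold between Mg levels, so 0 of 11 is near that share there. Of 3 listed plastid RNA processing genes, 1 passed the filter between days and 0 differed by 2-fold. Of 11 genes of chlorophyll synthesis and its control, 5 passed the filter between days and 1 was 2-fold higher at 7 d in both Mg levels. This was GLK2, a transcription factor for chloroplast development, with 2.86, 2.95 and 4.15 FPKM at 4 d and 16.1 and 14.4 at 7 d. Under 5 FPKM at 4 d, it passed the filter only through its 7-d values. Of all loci, 4.03% were 2-fold higher at 7 d in low Mg and 4.67% in high Mg.

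Markers and technical values were set beside the difference between days. The 11 nuclear markers of green shoot tissue summed to 13.5, 15.7 and 19.5 FPKM at 4 d and to 11.6 and 31.5 FPKM in L7 and H7, with RBCS1B, a small subunit gene of Rubisco, at 0 in all 5 libraries. PSBO1, an oxygen-evolving complex gene, held most of the H7 sum, at 17.7 FPKM against 4.93 in H4, and RCA, Rubisco activase, was at 5.73 against 3.72. LHCA1, an antenna gene of photosystem I, was at 1.86 FPKM in H7 against 4.73 in H4. The 8 root markers summed to 1797, 2285 and 3221 FPKM at 4 d and to 1301 and 1634 at 7 d. PYK10, a root beta-glucosidase, had 626, 926 and 1992 FPKM at 4 d and 276 and 1063 at 7 d, and with TIP2;3, a tonoplast aquaporin, it held most of the sum. The 8 did not all go one way, since EXPA7 had 35.9 FPKM in L4 and 53 in L7, and SCR 23.6 in H4 and 25.4 in H7. Of mitochondrial loci, 17 of 18 past the filter were 2-fold lower at 7 d in low Mg and 11 of 16 in high Mg. Their median log2 ratios were −3.07 and −1.77, and 1 was 2-fold higher in high Mg. Over all loci, 13.1% and 11.5% were lower. Mitochondrial loci at 5 FPKM or more numbered 18 in L4, 4 in L7, 15 in H4 and 7 in H7. Most thus passed the filter through their 4-d value. Fragment length was shorter at 7 d, as given above, and the processing notes name an aligner and counting tool only for the 4-d samples. The part of these in the plastid difference was not tested, and sample preparation by day and the day itself cannot be told apart.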

How the data were processed

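The authors deposited FPKM per locus for 1 root library per group, per the submitters' processing notes with TopHat2 2.0.8, Cufflinks 2.1.1 and build TAIR10 for the 4-d samples. For the 7-d samples those notes give the build alone, and the unit FPKM was read from the tool list and the values. The sources used here do not state RNA selection, strandedness or how reads with several matches were treated. The series matrix and the samples' own tables differed in 0 values.

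Groups came from the sample titles. Ratios were log2((a + 1)/(b + 1)) of deposited FPKM over all loci with 5 FPKM or more in either library, and 2-fold was an absolute value of 1 or more. No test was run. The FPKM of 1 fragment was taken from the lowest values of 21719 nuclear single-transcript genes as a constant over the effective length, under a normal fragment length law cut at the exon length, and the procedure was tested on simulated data. Fragments were estimated for named genes of 350 nt or more. Gene names, lengths, positions and sequences are those of RefSeq TAIR10.1. The tables carry no coordinates. Some plastid genes are not reported here and are in no named set. Standard names were kept only where the lengths gave whole fragments, and copies outside the plastid were searched with blastn 2.17.0. Python 3.11.15, numpy 2.4.6, pandas 2.3.3 and scipy 1.17.1 were used.

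The members, lists and limits were chosen with earlier results of these data known. The naming rule covers coding and ribosomal RNA genes of 500 nt or more and the highest short loci, and the genes of 350 to 500 nt were added after their values were seen. Its part on tRNA could not be applied, because the reference does not pair the identifiers.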

Additional observations from a re-analysis of the deposited data

How the results depend on the processing

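Of the values recomputed under other settings, 95 stayed within a 1.5-fold change or the counting interval and 47 moved beyond it. The 95 include all values from leaving out 1 copy of each inverted repeat pair, a setting that could move none. No median of 2-fold or more changed sign. The small median for low Mg against the control did, from 0.17 to −0.01 at 1000 nt or more, and that for high Mg against the control was 0.08 with a filter of 20 FPKM. Sums set on the nuclear sum turned direction for the 32 other genes between days and for atpB and atpE at 4 d. Low Mg against the control at 4 d stayed at 0 genes of 2-fold under every setting run.

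Rescaling to the same nuclear sum multiplies the libraries by factors of 1.40 (low Mg, 4 d), 2.44 (high Mg, 4 d), 6.40 (low Mg, 7 d) and 6.76 (high Mg, 7 d) against the control, where the median nuclear gene gave 1.01, 0.998, 1.12 and 1.12. Under it the counts of 2-fold genes were 6 for high Mg against the control, 4 for low against high Mg on each day, 6 for low Mg between days and 9 for high Mg between days, with medians of 1.37 for high Mg against the control, −1.06 for low against high Mg at 4 d, −2.57 for low Mg between days and −1.61 for high Mg between days. The cause was not tested. Scaling by the median nuclear ratio moved no call. That scaling shifts the 7-d libraries up by 0.16 and 0.17 on the log2 scale.

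With no filter, 2 genes differed between low and high Mg at 4 d and 1 at 7 d, and between days 10 differed in low Mg (median −0.47) and 7 in high Mg (median −0.34), since most genes are near 0. A filter of 20 FPKM left 1 gene for high Mg between days (−4.65). A pseudocount of 0.1 gave medians between days of −5.45 and −5.63 in low and high Mg, and a pseudocount of 5 gave −2.28 and −2.06. An exon length of 1000 nt or more left 1 and 2 genes between days, with a median of −3.11 in high Mg. With all coding genes whatever their length, 2 differed for high Mg against the control, 2 for low against high Mg at 4 d and 12 between days in each Mg level (median −5.10 in high Mg). With genes of 350 nt or more, a setting added after seeing the data, the counts were 1, 1, 8 and 8 and the medians between days −4.69 and −4.75.

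At 1000 nt or more, without rpoA's neighbours and rpoA itself, the plastid share of the summed FPKM and exon length was 0.00467%, 0.00488% and 0.00523% in the control, low and high Mg at 4 d. The RNA polymerase share was 1.94%, 2.64% and 4.16% there and 34.4% in high Mg at 7 d, and the ATP synthase share was 64.4%, 63.0% and 54.9%. In summed FPKM, also added later, the 8 genes high at 4 d were 93.5-fold (low Mg) and 132-fold (high Mg) higher at 4 d. Leaving out 1 copy of each inverted repeat pair changed no value. The identifiers left out were those after ycf1 (ATCG01130), which hold no named coding gene of this length, and ycf1 itself was kept whole.

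No paired analysis was possible because each group is 1 library and the labels carry no replicate number. Leaving out a replicate was likewise not possible. Low against high Mg at 7 d has no median, since 0 genes passed the filter. Precision is set by counts: most genes outside the 8 high at 4 d rest on few fragments, so sums over genes were set side by side.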
